A study of Mus musculus with 2 samples.

Results

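Genes that fold proteins in the endoplasmic reticulum (ER), or remove proteins that fail to fold there, were examined in Flk-1-positive early mesodermal cells made from mouse embryonic stem cells. The set holds 36 of the 16444 named genes of the array. In the array's annotation 33 of them were found under their listed names and 3 under older ones, Sel1l as Sel1h, Uggt1 as Ugcgl1 and Os9 as 4632413K17Rik. A single probe measured 34 of the genes, and for Ppib and Os9, with 2 probes each, the brighter probe was chosen by the mean spot median of both arrays. The genes themselves were selected on earlier results of the same arrays, the difference between the arrays included, so that difference is a description here and carries no test.

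The gene-trapped cells had both alleles of AU019823 disrupted by an inserted trap cassette. The revertant cells came from the matching line whose genotype the labels call almost that of the wild type. Both kinds of stem cell were grown on OP9, bone marrow stroma that supports the formation of blood cells, and the cells that carried Flk-1 (the product of Kdr) on their surface were then sorted after a coculture of 4 days. The labels give day 4.5 for both samples, 300000 sorted cells for the gene-trapped and 350000 for the revertant RNA, and an unexplained code for each sample. If those codes stand for single clones, a difference between clones and one between genotypes cannot be told apart. Each group was a single array, so every difference compares these 2 RNA samples and has no standard error or p-value. The samples are bulk RNA of sorted cells, in which fewer cells of a type and less RNA per cell cannot be told apart.

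Values are given as the spot signal, the linear median intensity of a spot in scanner units, and as the log2 difference between normalized signals, gene-trapped minus revertant. Spots without a probe had a mean signal of 20.1 on the gene-trapped array and 22.5 on the revertant array, and a gene counted as above background where its signal lay more than 2 SD over that mean, a limit of 22.3 on the gene-trapped and 24.99 on the revertant array. All 36 genes were above background on both arrays. The median probe signal was 38.6 on the gene-trapped array and 47.5 on the revertant array, so spot signals before normalization run higher in revertant cells. The AU019823 probe had signals of 297 in gene-trapped and 486 in revertant cells, a log2 difference of -0.39; where it lies relative to the trap is unknown, so its value is no check of which sample is which. The sorting marker's own gene, Kdr, had signals of 537 in gene-trapped and 1025 in revertant cells and a log2 difference of -0.65. All 7 early mesoderm markers were above background on both arrays, 4 with log2 differences above 0 and 3 below. Mixl1 (1.99) and Etv2 (1.30) were at least 2-fold higher in gene-trapped cells, T had 0.76 and Mesp1 0.51, while Pdgfra (-0.02), Kdr and Tal1 (-0.69) had negative values. Whether the samples differ in stage of differentiation was not tested.

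The ER folds proteins bound for the cell surface, for secretion and for the organelles of the secretory pathway. Chaperones of the HSP70 and HSP90 classes hold unfolded chains, protein disulfide isomerases and their oxidases form disulfide bonds, and lectin chaperones hold sugar-tagged chains until they fold. Chains that fail are pulled back through the membrane and degraded by the proteasome. When unfolded chains build up, 3 membrane sensors encoded by Atf6, Ern1 (the protein IRE1) and Eif2ak3 (the protein PERK) raise the unfolded protein response. ATF6 is cut to release a transcription factor, IRE1 splices Xbp1 messenger RNA so that it encodes an active factor, and PERK slows translation while favouring the factor ATF4.

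ATF6 and XBP1 are known to act through the ER stress response element, here called ERSE. It was searched as CCAAT and CCACG separated by 9 bases, and its second form, ERSE-II, as ATTGG and CCACG separated by 1 base. Both strands of RefSeq promoter windows of 300 bases, 250 before and 50 after the annotated start of the gene (build GRCm38.p6), were read. Windows were given for 31 of the 36 genes, the others being Hyou1, Armet, Erp29, Derl1 and Atf6. ERSE was found in 10 of the 31 genes (32.3%), whereas 37 of all 27025 genes with a window hold it (0.137%). ERSE-II was found in 2 of the 31, and in 12 of all genes (0.0444%). The shared half-site CCACG, which lies inside both elements, was found in 26 of the 31 (83.9%) against 35.5% of all genes, and the XBP1 element TGACGTGG, whose last 5 letters are the half-site read on the other strand, in 0 of the 31 against 0.714% of all genes. These matches describe letters and are not evidence of binding.

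The full elements are shown because 12 of the genes share them. Many of these genes are textbook targets of ATF6 and XBP1, some of them known through this very element, so the sharing is not independent of the choice of the genes. Each is written 5′ to 3′ on the strand that carries the element, with 10 bases on either side, and capitals mark the outer 5 bases of the element at each end. Herpud1 and Dnajb11 carry ERSE-II and the others ERSE, with a pair of them on opposite strands in Hsp90b1. Sequences are ordered by log2 difference, from the most negative.
Derl3 (chr10:75893232-75893270, minus strand): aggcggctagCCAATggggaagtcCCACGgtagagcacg
Herpud1 (chr8:94386367-94386397, plus strand): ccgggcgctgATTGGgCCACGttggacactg
Creld2 (chr15:88819510-88819548, minus strand): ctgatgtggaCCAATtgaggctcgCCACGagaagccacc
Pdia6 (chr12:17266481-17266519, plus strand): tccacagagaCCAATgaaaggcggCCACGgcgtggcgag
Dnajc3 (chr14:118937817-118937855, plus strand): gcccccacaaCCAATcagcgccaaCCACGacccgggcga
Hsp90b1 (chr10:86705628-86705666, minus strand): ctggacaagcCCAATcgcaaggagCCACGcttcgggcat
Hsp90b1 (chr10:86705523-86705561, plus strand): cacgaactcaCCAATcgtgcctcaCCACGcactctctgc
Hspa5 (chr2:34772015-34772053, plus strand): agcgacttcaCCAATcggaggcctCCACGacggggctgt
Dnajb11 (chr16:22857842-22857872, plus strand): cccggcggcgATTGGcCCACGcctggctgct
Syvn1 (chr19:6046522-6046560, plus strand): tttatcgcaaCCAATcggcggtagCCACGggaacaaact
Calr (chr8:84847065-84847103, plus strand): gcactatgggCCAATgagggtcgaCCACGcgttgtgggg
Canx (chr11:50325790-50325828, minus strand): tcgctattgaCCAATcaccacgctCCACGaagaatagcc
Ero1lb (chr13:12565672-12565710, minus strand): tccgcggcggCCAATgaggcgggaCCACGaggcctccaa

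The whole window is shown for the 3 genes with the most negative values among those with a window, Derl3, Sdf2l1 and Herpud1, and for Hspa5, the gene in which the element is best known. Capitals mark the matched ends of ERSE or ERSE-II and every half-site CCACG, on either strand. Sdf2l1 has 3 half-sites and neither full element.
Derl3 (chr10:75893148-75893447, plus strand): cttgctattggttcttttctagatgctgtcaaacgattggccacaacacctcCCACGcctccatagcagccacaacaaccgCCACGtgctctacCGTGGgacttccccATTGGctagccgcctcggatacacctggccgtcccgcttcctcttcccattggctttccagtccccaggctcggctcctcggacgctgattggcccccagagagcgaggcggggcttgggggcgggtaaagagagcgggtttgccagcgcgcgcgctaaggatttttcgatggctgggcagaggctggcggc
Sdf2l1 (chr16:17132334-17132633, minus strand): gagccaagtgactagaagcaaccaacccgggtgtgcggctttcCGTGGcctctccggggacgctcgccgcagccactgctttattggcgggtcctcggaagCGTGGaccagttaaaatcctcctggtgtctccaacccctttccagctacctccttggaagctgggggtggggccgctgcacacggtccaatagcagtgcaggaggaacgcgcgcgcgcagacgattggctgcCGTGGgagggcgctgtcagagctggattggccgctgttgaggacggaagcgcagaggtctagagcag
Herpud1 (chr8:94386179-94386478, plus strand): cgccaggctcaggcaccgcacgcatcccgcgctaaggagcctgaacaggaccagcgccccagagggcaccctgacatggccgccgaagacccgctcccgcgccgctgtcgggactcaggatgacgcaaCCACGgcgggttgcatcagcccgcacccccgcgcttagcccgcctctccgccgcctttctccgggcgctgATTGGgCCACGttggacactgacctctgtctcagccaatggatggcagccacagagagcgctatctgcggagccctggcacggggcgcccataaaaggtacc
Hspa5 (chr2:34771840-34772139, plus strand): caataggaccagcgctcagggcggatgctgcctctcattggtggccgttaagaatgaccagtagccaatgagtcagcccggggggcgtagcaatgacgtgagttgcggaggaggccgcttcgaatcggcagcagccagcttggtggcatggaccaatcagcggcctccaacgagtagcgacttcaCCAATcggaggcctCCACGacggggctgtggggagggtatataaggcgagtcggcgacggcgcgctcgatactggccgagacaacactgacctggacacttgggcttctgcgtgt

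**Figure D1:**
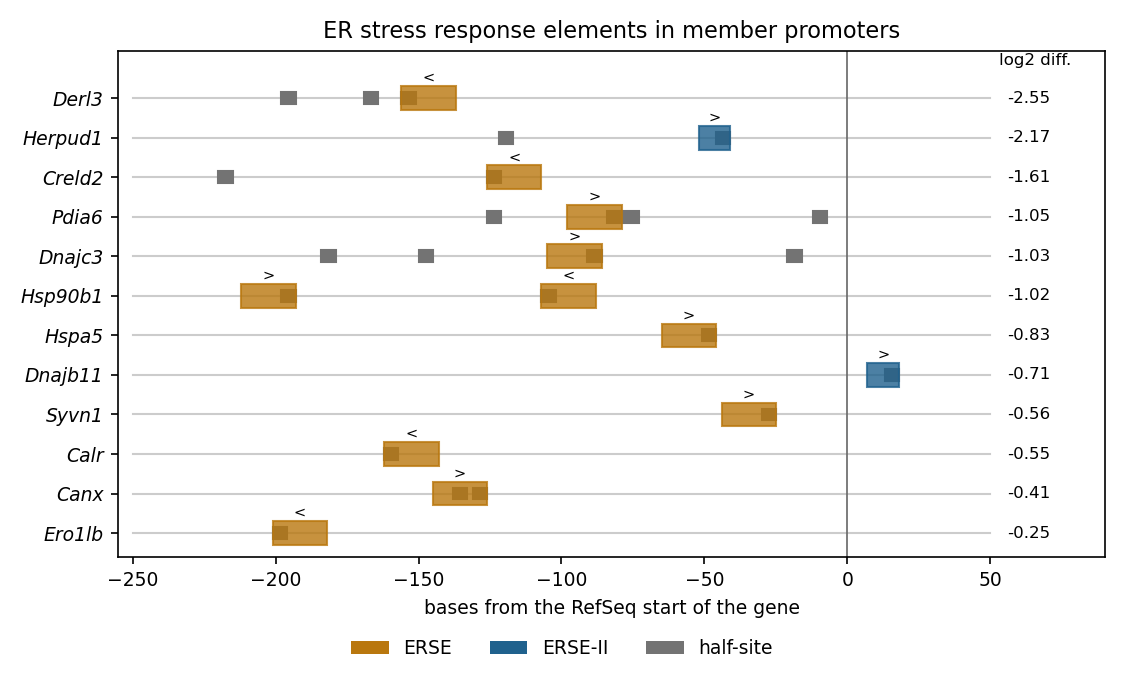
Matches to ERSE, ERSE-II and the half-site in the promoter windows of the 12 genes that hold a full element, by distance in bases from the RefSeq start of the gene; arrows give the strand of a full element relative to the gene, and the column at the right gives the log2 difference, gene-trapped minus revertant. The 11 ERSE matches begin between 212 and 44 bases before the start, and the ERSE-II of Dnajb11 begins 7 bases after it.

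Within the set, the 12 genes with either element had a median log2 difference of -0.93, from -2.55 (Derl3) to -0.25 (Ero1lb), and 6 of them lay at -1 or below. The 19 without one had a median of -0.60, from -2.31 (Sdf2l1) to 0.10 (Uggt1), and 5 were at least 2-fold lower. The ranges overlap almost in full.

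As a set, the ER genes were lower in gene-trapped cells. Of the 36, 35 had a log2 difference below 0, where 46.6% of the 13753 named genes above background on both arrays did. A fold of at least 2 lower was reached by 12 of 36, against 1.08% of all these genes, and a fold of at least 2 higher by 0 of 36, against 0.334%. The median of the set was -0.64, whereas that of all genes was 0.01, and the 25th and 75th percentiles of all genes were -0.08 and 0.10. All 12 genes past 2-fold stood among the lowest 1% of all genes, which nearly follows from the 2-fold size, as 1.08% of all genes reached it. Of the 36, 22 stood among the lowest 5%. The shares over all genes were not matched to the set for signal. They include dim genes, whose differences the offset of 50 used in processing makes smaller. Because the 36 genes were chosen with such values in view, these shares describe the set and say nothing on how far it stands apart. The genes nearest to the 2-fold size were Hsp90b1 at -1.02 on the one side and P4hb at -0.88 on the other.

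**Figure D2:**
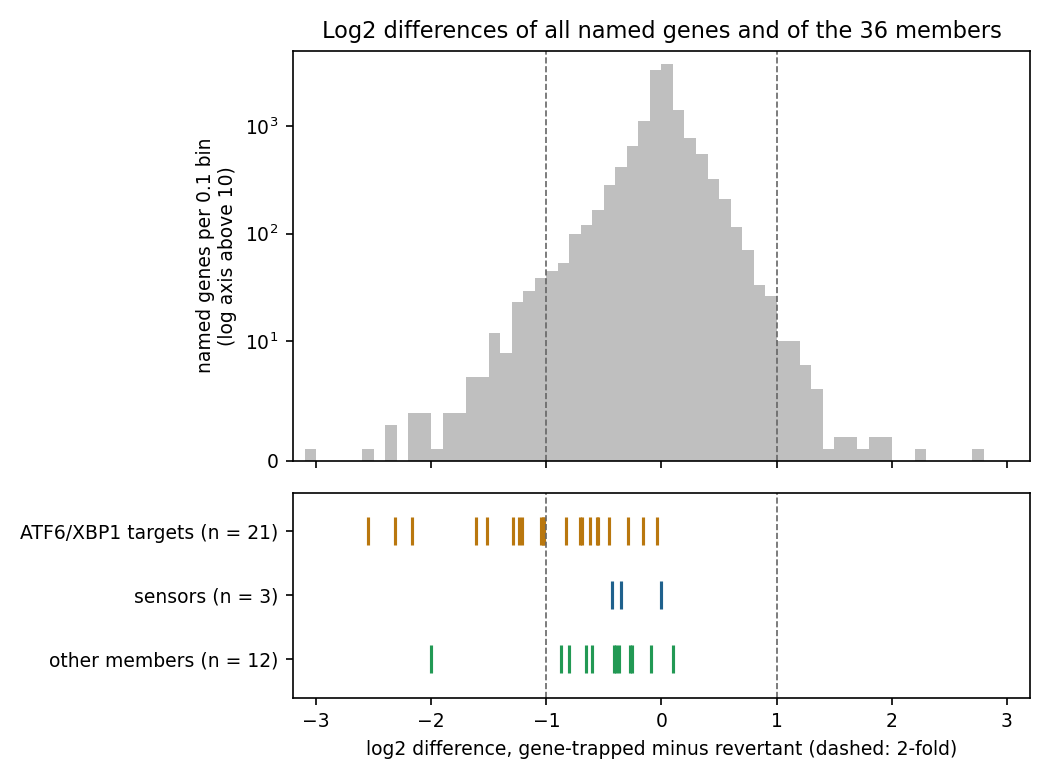
Log2 differences, gene-trapped minus revertant: the upper panel counts all 13753 named genes above background in bins of 0.1 on an axis that is linear to 10 and logarithmic above, and the lower panel marks each of the 36 genes, split into 21 ATF6/XBP1 targets, 3 sensors and 12 other genes. Dashed lines mark 2-fold; 11 of the targets, none of the sensors and 1 of the other genes lie at or beyond the lower one.

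All 8 genes of the chaperone system had values below 0, with 4 of them at least 2-fold lower and a median of -0.93. Sdf2l1, a partner of the ER HSP70 cochaperones, had a spot signal of 301 in gene-trapped cells and 1937 in revertant cells. Its log2 difference of -2.31 (4.97-fold lower) was the fourth lowest of those 13753 genes. Armet encodes MANF, a protein of the ER lumen that can also be secreted and binds BiP. Its signals were 2074 in gene-trapped and 5953 in revertant cells, a log2 difference of -1.21 (2.31-fold lower). Dnajc3, which encodes the cochaperone p58IPK, had 186 in gene-trapped against 509 in revertant cells, a log2 difference of -1.03.

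Hspa5 and Hsp90b1, which encode the main ER chaperones BiP and GRP94, had high signals on both arrays. Their differences were smaller than those of Sdf2l1 and Armet. Hsp90b1 had 4344 in gene-trapped and 11209 in revertant cells, a log2 difference of -1.02 (2.03-fold lower). With the scanner's local background subtracted, Hsp90b1 had -0.88 and Dnajc3 -0.51, both short of 2-fold. Hspa5 had 7500 in gene-trapped and 17988 in revertant cells, a log2 difference of -0.83 (1.78-fold lower), short of 2-fold. Under median scaling Hspa5 had -1.12, past 2-fold. The HSP40 cochaperone gene Dnajb11 lay close to Hspa5 in the main processing, with a log2 difference of -0.71. Its signals were 653 in gene-trapped and 1286 in revertant cells. The last chaperone genes were dim: Dnajb9, another HSP40 gene, had 61.0 against 103 (-0.29), and Hyou1, a nucleotide exchange factor for BiP, had 44.7 against 66.1 (-0.16), each with the gene-trapped signal first. An offset of 50 that is added before the logarithm makes the differences of such dim spots smaller than the ratio of their signals. In the authors' deposited table, which differs in offset, background and scaling, Dnajb9 was 1.52-fold and Hyou1 1.37-fold lower in gene-trapped cells. Hyou1 turned to 0.01 with the local background subtracted.

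All 11 genes of disulfide and proline isomerisation were lower, 4 of them at least 2-fold, with a median of -0.81. Ero1l, which encodes an oxidase that passes oxidising power to the disulfide isomerases and is also known as a target of hypoxia signalling, had the most negative value. Its spot signal was 89.2 in gene-trapped cells and 551 in revertant cells, a log2 difference of -2.001 (4.00-fold lower). The scanner's local background around the Ero1l spot was high beside its signal, 61.8 on the gene-trapped and 498 on the revertant array, and with it subtracted the log2 difference was -0.31. The call at 2-fold for Ero1l thus depends on that choice. The second oxidase gene, Ero1lb, was dim on both arrays, at 29.0 in gene-trapped and 48.5 in revertant cells, with a log2 difference of -0.25. The paralogs thus differed in size in the main processing, but the low signal of Ero1lb limits what its value can show: in the authors' table it was 2.25-fold lower, against 5.89-fold for Ero1l.

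The Creld genes encode proteins with an EGF-rich extracellular or lumenal part, and Creld2 is the ER stress-inducible one. Creld2 had 344 in gene-trapped and 1349 in revertant cells, a log2 difference of -1.61 (3.06-fold lower). Creld1 had 53.03 in gene-trapped and 127 in revertant cells, a log2 difference of -0.66.

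Among the protein disulfide isomerase genes, Pdia4 and Pdia6 passed 2-fold in the main processing and the others did not. Pdia4 had 353 in gene-trapped against 1056 in revertant cells (log2 difference -1.24), and Pdia6 had 3343 in gene-trapped against 8952 in revertant cells (-1.05). The local background at the Pdia6 spot was 3234 on the gene-trapped and 5796 on the revertant array, and its log2 difference with that subtracted, -4.20, rests on what little signal was left in gene-trapped cells. P4hb, the classic isomerase gene whose product is also a subunit of collagen prolyl hydroxylase, had 2555 in gene-trapped and 5873 in revertant cells (-0.88). Its local background was 2162 on the gene-trapped and 5483 on the revertant array, and with that subtracted its log2 difference was -0.17. Under median scaling P4hb had -1.05, past 2-fold. Pdia5 had -0.81, and Pdia3, whose product works with the lectin chaperones, had -0.60. Erp29, a redox-inactive relative, had -0.37, and Ppib, the cyclophilin B gene, had -0.27. Their signals were 635.03 in gene-trapped and 991 in revertant cells for Erp29, and 2435 in gene-trapped and 3643 in revertant cells for Ppib. With the local background subtracted, which was 419 on the gene-trapped and 833 on the revertant array at the Erp29 spot, the difference of Erp29 turned to 0.24.

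The lectin cycle differed less, and none of its 3 genes reached 2-fold. Calr and Canx encode calreticulin and calnexin, which bind chains whose sugar tag has been trimmed to its last glucose. Calr had 426 in gene-trapped and 770 in revertant cells, a log2 difference of -0.55. Canx had 1540 in gene-trapped and 2476 in revertant cells, a log2 difference of -0.41. Uggt1 encodes the enzyme that puts the glucose back on unfolded chains. It was the 1 gene of the 36 with a positive value, 0.10, from signals of 165 in gene-trapped and 197 in revertant cells. Its sign turned under median scaling (-0.06) and with the local background subtracted (-0.03).

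**Figure D3:**
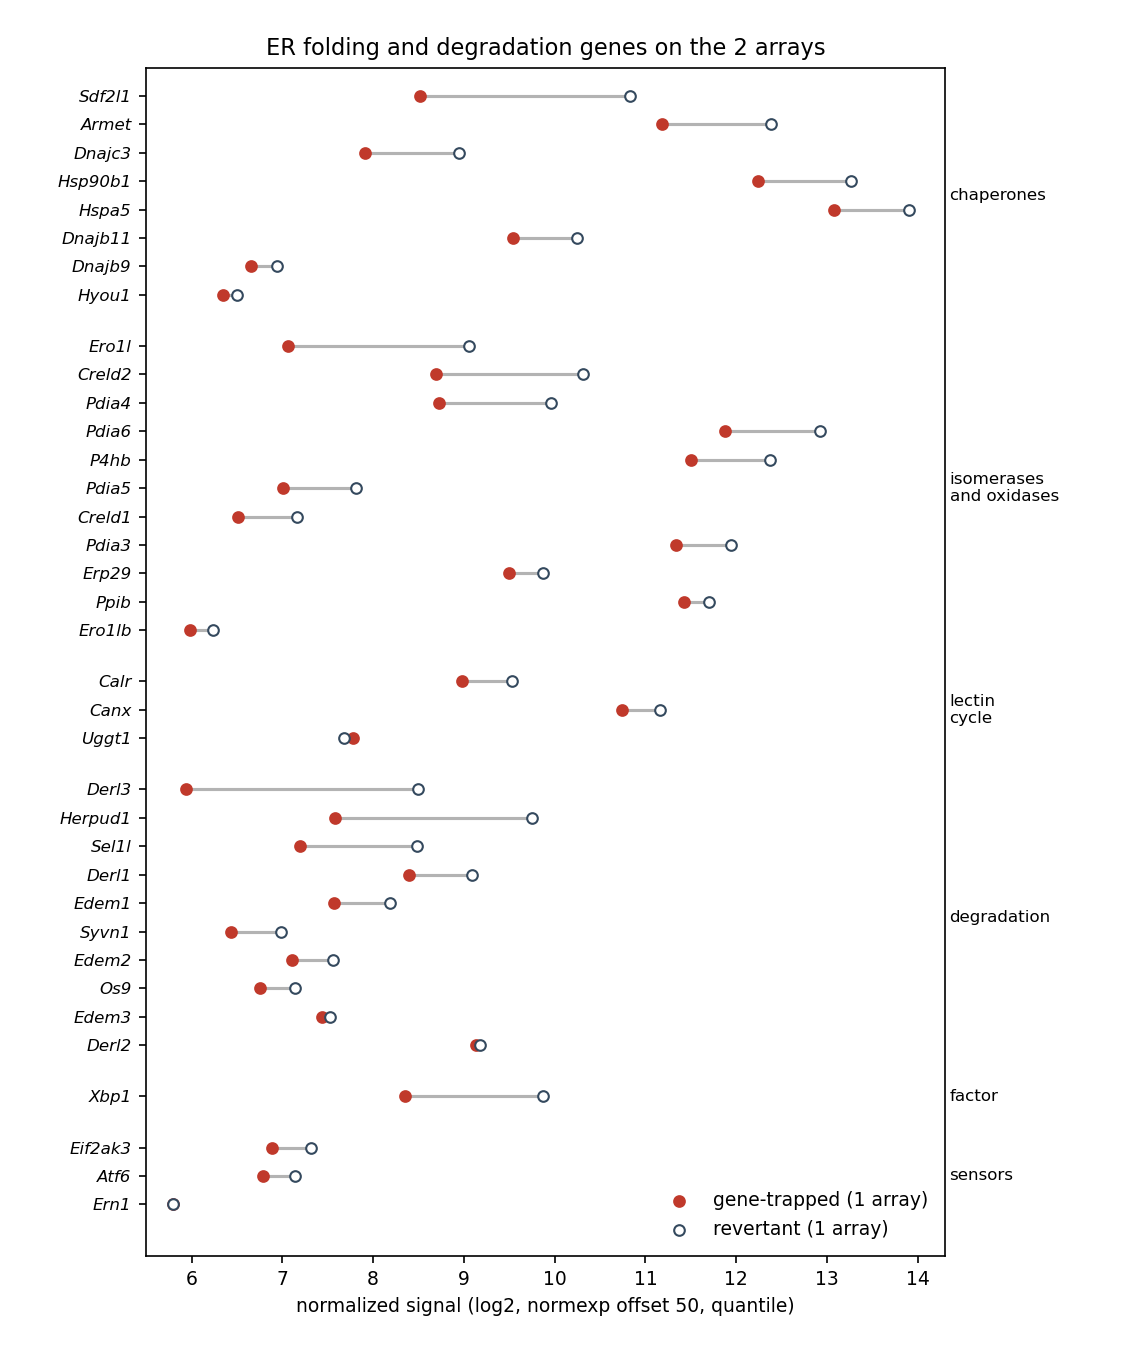
Normalized log2 signal of the 36 genes, grouped by role: filled points are the gene-trapped array and open points the revertant array, with 1 array each and no error bars. The filled point lies left of the open point for 35 genes, by the longest distance for Derl3 (a log2 difference of -2.55), and right of it for Uggt1, while for Ern1 the points coincide at this scale; levels of different genes come from different probes and are not comparable.

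Degradation genes differed in size, with log2 differences from -2.55 to -0.04 and others spread between. Derl3, which encodes a membrane protein of the channel that draws misfolded chains out of the ER, had a spot signal of 27.5 in gene-trapped cells, little above the limit of 22.3, and of 364 in revertant cells. Its log2 difference of -2.55 (5.87-fold lower) was the second lowest of those 13753 genes. The size of the Derl3 difference depends on the background treatment: it was -3.57 with offset 16, -3.46 without background correction and -1.84 with the local background subtracted. In the authors' table, which differs in background, offset and scaling together, Derl3 had 6.37 in gene-trapped and 225 in revertant cells, 35.3-fold lower. The other Derlin genes did not share it. Derl1 had 272 in gene-trapped and 562 in revertant cells (log2 difference -0.69), and Derl2 had 485 in gene-trapped and 602 in revertant cells (-0.04).

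Herpud1 encodes a membrane protein that gathers the degradation complex. It had 141 in gene-trapped and 896 in revertant cells, a log2 difference of -2.17 (4.49-fold lower), and -0.90 with the local background subtracted. Sel1l and Syvn1 encode the scaffold and the ubiquitin ligase of the main complex. Sel1l had 101 in gene-trapped and 362 in revertant cells, a log2 difference of -1.29 (2.44-fold lower). Syvn1 had signals nearer to the background, with 48.7 in gene-trapped and 108 in revertant cells and a log2 difference of -0.56, which in the authors' table was 2.30-fold lower.

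The Edem genes, which mark glycoproteins for disposal by trimming mannose, ran in the order Edem1 (-0.62), Edem2 (-0.45) and Edem3 (-0.09). Edem1 had 139 in gene-trapped and 293 in revertant cells, whereas Edem3 had 125 in gene-trapped and 172 in revertant cells. With the local background subtracted Edem3 turned to 0.39. Os9, a lectin that hands trimmed chains to the complex, had 67.2 in gene-trapped and 125 in revertant cells, a log2 difference of -0.39. Over all 10 degradation genes the median was -0.59, and 3 were at least 2-fold lower.

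The factor and the sensors of the response did not differ alike. Xbp1 had 265 in gene-trapped and 992 in revertant cells, a log2 difference of -1.52 (2.87-fold lower). The annotation does not say whether the probe tells the spliced from the unspliced messenger RNA. Of the sensors, Eif2ak3 had 76.6 in gene-trapped and 146 in revertant cells, a log2 difference of -0.43, and Atf6 had 69.7 in gene-trapped and 125 in revertant cells, a log2 difference of -0.35. Ern1 was barely above background, with 22.5 in gene-trapped and 25.7 in revertant cells, so its log2 difference of -0.0038 shows little, and under median scaling (0.10) and 75th percentile scaling (0.24) it was positive.

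Set side by side, the 21 genes that are textbook targets of ATF6 or XBP1, Xbp1 itself included, had a median log2 difference of -1.02 and 11 at least 2-fold lower. The 3 sensor genes had a median of -0.35 and 0 past 2-fold. The 12 other genes had -0.40 and 1 past 2-fold, Ero1l. These 12 were Pdia3, Pdia5, P4hb, Canx, Edem3, Ero1l, Ero1lb, Creld1, Ppib, Os9, Uggt1 and Erp29. Canx and Ero1lb hold a full ERSE, so the medians depend on how the classes were drawn. No test of the difference between the classes is possible with 1 array per group. In the authors' table the targets had a median of -1.05 with 11 past 2-fold lower, the sensors -0.67 with 0, and the other genes -0.65 with 4. The sensors' signals were low, from 22.5 to 76.6 in gene-trapped and from 25.7 to 146 in revertant cells. The 3 targets with revertant signals no higher than the highest sensor's had a median of -0.29, close to that of the sensors. The 18 targets with higher revertant signals had -1.04. In the authors' table these medians were -0.61 for the 3 and -1.10 for the 18. The revertant signal is itself a term of the difference, so this split by construction favours more negative values among the 18. Derl3, with 27.5 in gene-trapped cells, is among those 18. The split therefore cannot show the part of low signal in the sensors' smaller differences, which was not tested.

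In the values the authors deposited, 15 of the 36 genes were at least 2-fold lower, against 4.02% of 14203 named genes with a value in both columns. Of these, 11 were also past 2-fold in the main processing, and 4 were not: Creld1, Pdia5, Syvn1 and Ero1lb. Hsp90b1, at 1.99-fold, fell just short there. Derl2 turned to 1.04 times higher, from a difference close to 0.

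**Figure D4:**
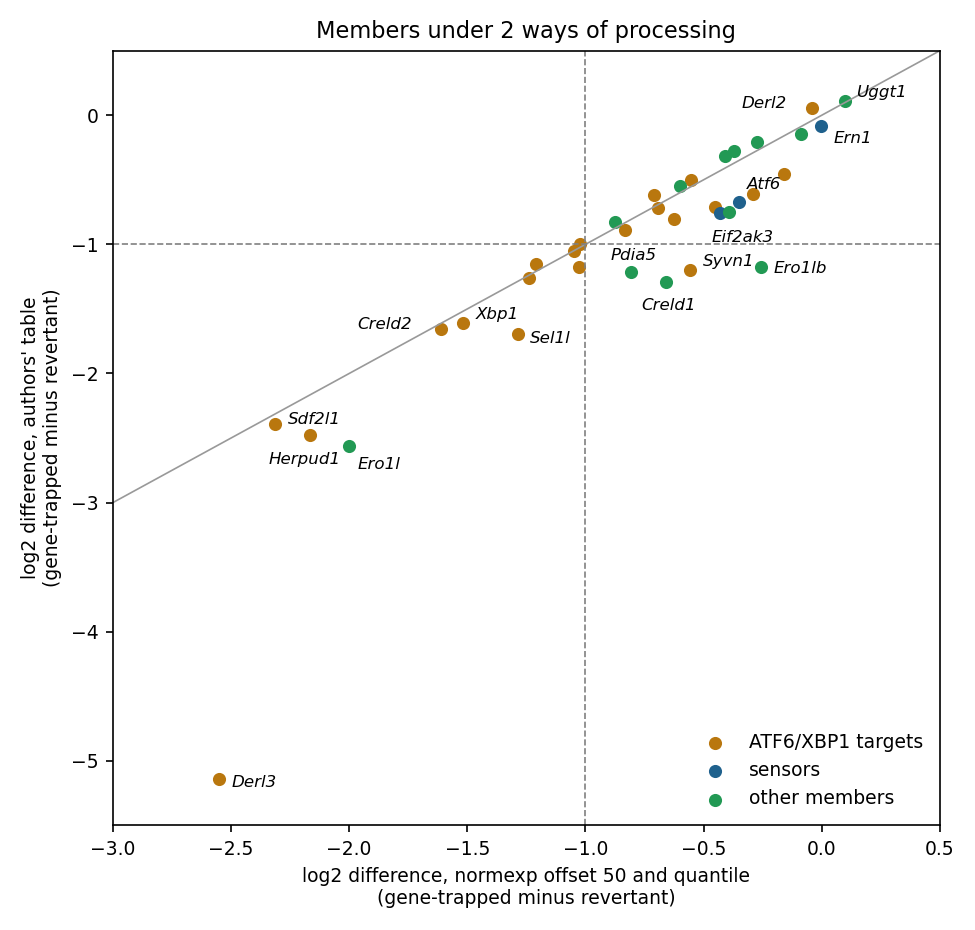
Log2 difference of each gene, gene-trapped minus revertant, with the normexp offset of 50 and quantile normalization (horizontal) against that in the authors' table (vertical), coloured by class; the line marks equal values and dashed lines mark 2-fold lower. Dim genes such as Derl3, Ero1lb, Creld1 and Syvn1 lie below the line; the table also differs in background and scaling.

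Other genes of the pathway, from lists that were drawn up with earlier results known, had medians from -0.66 to 0.01. Of 28 further folding genes above background, 25 were below 0 and 3 at least 2-fold lower, with a median of -0.20. Those 3 were Fkbp11 (-1.25) and Fkbp2 (-1.18), both ER prolyl isomerase genes, and Erp44 (-1.24), whose product retains the Ero1 oxidases in the early secretory pathway. Sil1, an exchange factor for BiP, followed at -0.74. The Sdf2l1 paralog Sdf2 had signals of 752 in gene-trapped and 870 in revertant cells and a log2 difference of 0.02.

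The 15 genes of glycan trimming and of the oligosaccharyltransferase, the enzyme that attaches the sugar, had a median of -0.34, with 12 below 0 and 0 past 2-fold. The oligosaccharyltransferase subunits Rpn2 (-0.82), Tusc3 (-0.58), Stt3a (-0.58) and Rpn1 (-0.52) had the largest differences. The 18 other degradation genes, many of them on the cytosolic side, had a median of 0.01, with 8 below 0. Ubxn4 (-0.60) and Erlec1 (-0.56) had negative values, as had Ubxn6 (-0.36), whereas the ubiquitin-conjugating enzyme gene Ube2j1 had a positive one (0.45). Vcp, the ATPase that pulls chains into the cytosol, had 2683 in gene-trapped and 2776 in revertant cells and a log2 difference of 0.26.

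Proteases and relatives of the sensors were close to 0. The median of 13 such genes was -0.06, with 9 below 0 and 0 past 2-fold, and the largest differences were those of Eif2ak4 (-0.41), Tmbim6 (-0.30), Traf2 (0.22) and Wfs1 (-0.20). Genes of the PERK and ATF4 branch, Atf4 itself and Eif2s1 included, had a median of -0.66 over 12, with 10 below 0. The 4 past 2-fold were Trib3 (-2.30), Ddit3 (-1.90), Chac1 (-1.83) and Asns (-1.55). Asns encodes asparagine synthetase, and ATF4 raises these genes on amino acid shortage as well as on ER stress.

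**Figure D5:**
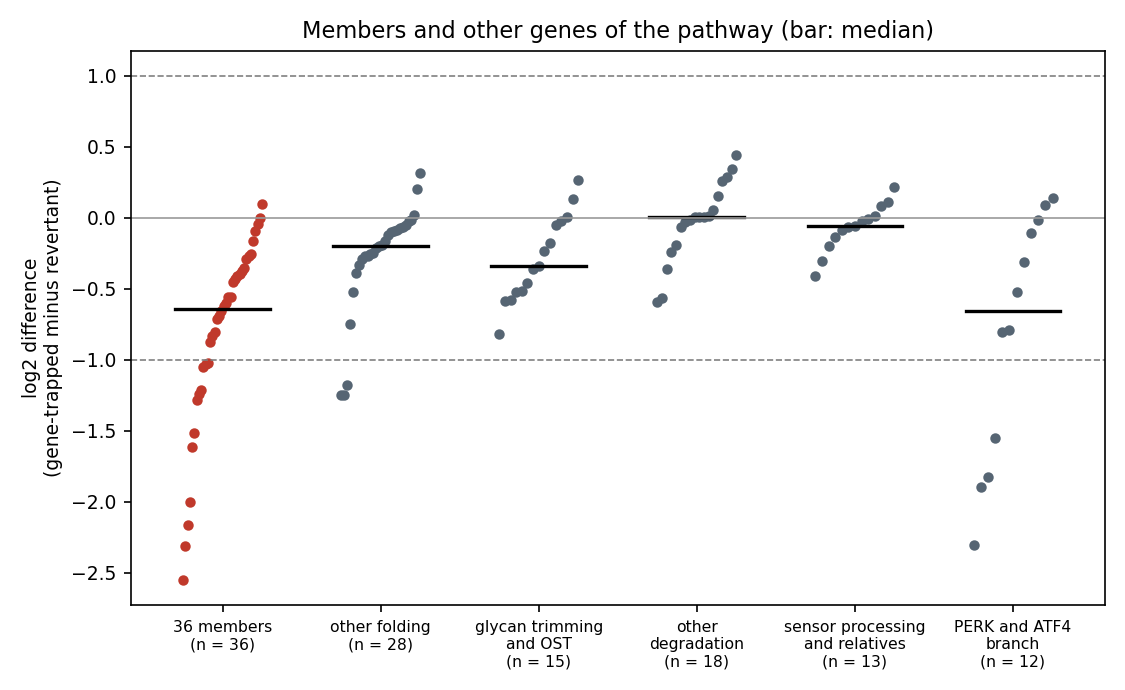
Log2 difference of each gene above background on both arrays, gene-trapped minus revertant, for the 36 genes and for 5 lists of other pathway genes; points are single genes spread sideways in rank order, bars are medians and dashed lines mark 2-fold. The median lies at -0.64 for the 36 genes, at 0.01 for other degradation genes and at -0.66 for the PERK and ATF4 branch.

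Markers of other cells that the culture or the sort could hold were measured beside these genes. Of the 8 stromal and fibroblast markers, 7 were above background on both arrays, 5 of them were below 0, and 2, Col1a1 (-1.49) and Acta2 (-1.30), were at least 2-fold lower. Their summed spot signal was 1642 on the gene-trapped and 4575 on the revertant array, most of it from Acta2, and Dcn was at the level of blank spots on both. Collagen is itself folded in the ER. Of the 5 markers of endoderm, a secretory tissue, Afp, Ttr and Apoa1 were at the blank level on both arrays, while Sox17 had 28.3 in gene-trapped and 41.1 in revertant cells and Foxa2 had 27.2 in gene-trapped and 27.4 in revertant cells. Of the 4 macrophage markers 2 were above background on both arrays, Cd68 (0.11) and Csf1r (0.02), neither of them below 0. Ptprc was at the blank level, and the summed signal before normalization was 179 on the gene-trapped and 208 on the revertant array. All 3 markers of plasma cells, which hold much ER, were above background and none was below 0, with a summed signal of 121 on the gene-trapped and 112 on the revertant array. Of 4 markers of undifferentiated stem cells, Nanog (0.03) and Zfp42 (0.12) were found by name, and both were above background. The part of stromal cells in the lower ER genes was not tested.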

How the data were processed

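Total RNA of 2 samples was amplified, coupled to Cy5 and hybridised to 1 TORAY array each, per the labels' protocols. The scanner files deposited by the authors hold linear spot intensity, scanned at 3 gains that were put on a common scale by a least-squares line, per the file headers. The authors also deposited a table of linear intensity, found here to be the spot signal less about the blank mean, scaled to a median of 25. Direction and scale follow the scanner values; the reason for its empty cells is not given in the sources used here.

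Intensities of all spots were corrected with normexp (offset 50) in limma 3.58.1 (R 4.3.3), then quantile-normalized over 23473 probes less 2 flagged spots, and put on the log2 scale; Python 3.11.15, numpy 2.4.6 and pandas 2.3.3 did the rest. The scripts were tested on simulated data. Each named gene had its brightest probe by mean spot signal. Differences are gene-trapped minus revertant, called at 2-fold with no test. The number of arrays limits the precision. Members, lists and rules were chosen with earlier results of these data known. The text names all members, up to 4 genes of each pathway list with the largest absolute difference, and Sdf2 and Vcp, added after their values were seen. Synonyms came from RefSeq's GRCm38.p6 gene table, promoters from RefSeq. The 10 alternatives were 3 other scalings (median, 75th percentile, cyclic loess), 3 other background treatments, 2 other filters on dim probes, the mean over a gene's probes and the authors' table.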

Additional observations from a re-analysis of the deposited data

Results flagged for a closer look

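Ppib and Os9 each have a second, dimmer probe that the comparison did not use and whose signal was above background on both arrays. The second Ppib probe had a signal of 55.3 on the gene-trapped array and 80.4 on the revertant array, a log2 difference of -0.13, against -0.27 at the probe used. The second Os9 probe had 49.97 on the gene-trapped and 65.0 on the revertant array, a log2 difference of -0.03, against -0.39 at the probe used. Both pairs of probes had the same sign. The cause of the gap between probes was not tested.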

How the results depend on the processing

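No paired analysis was possible because the comparison rests on 1 sample of each kind. The 12 genes at least 2-fold lower had negative values in all 10 alternatives and stayed past 2-fold in 8 of them; 11 did so in the authors' table and 8 with the scanner's local background subtracted. The count of genes past 2-fold lower ran from 8 to 15 and that of genes 2-fold higher was 0 throughout. The median of the 36 genes was -0.77 under median scaling, -0.82 in the deposited values and -0.44 after subtraction of the local background. The median of ATF6/XBP1 targets was -1.17 under median scaling and -0.88 with the local background subtracted. The median of sensors was -0.47 under median scaling, -0.48 with offset 16, -0.47 when no background was corrected, -0.67 in the deposited values and -0.23 after subtraction of the local background. Over all genes, 238, 227 and 571 were at least 2-fold lower with offset 16, with uncorrected signals and in the deposited values, and 87, 84 and 285 higher, with 280 higher when the local background was subtracted. A smaller offset widens dim genes' folds by construction; otherwise the cause was not tested. With the local background subtracted 33 of 36 genes were below 0 (not Erp29, Edem3 and Hyou1). Hsp90b1, Dnajc3, Ero1l and Herpud1 then fell short of 2-fold. Local background lay far above the blank level at some bright spots, and whether its subtraction removes spot signal was not tested. Scaling to the 75th percentile moved the median of all genes to 0.15 and left that of the 36 genes at -0.64, so relative to all genes the set lay lower there. Low signal over background limits Ern1, Ero1lb, Hyou1 and, in gene-trapped cells, Derl3.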

Other observations

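ERSE or ERSE-II was also found in the promoter windows of 37 genes outside the set, of which 18 are named on the array and 17 were above background on both arrays. This look at other holders of the element was added after the members' values were seen. Their median log2 difference was -0.01, with 9 below 0, 0 at least 2-fold lower and 0 at least 2-fold higher, and the range ran from -0.65 to 0.34. The lowest were Nucb1, a calcium-binding protein gene of the secretory pathway, with signals of 296 in gene-trapped and 586 in revertant cells (-0.65), Krtcap2, which encodes an oligosaccharyltransferase subunit, with 1099 in gene-trapped and 2007 in revertant cells (-0.62), and Alg12, a mannosyltransferase gene of the ER, with 44.0 in gene-trapped and 97.4 in revertant cells (-0.55). These 3 were singled out after their values were seen. The highest was Rcl1, a ribosome biogenesis gene, at 0.34, followed by Hnrnpa3 at 0.29. Ptgdr2, the gene at the median, had signals of 24.4 in gene-trapped and 28.4 in revertant cells. Zfp57 was as dim, at 22.8 in gene-trapped and 28.6 in revertant cells. The offset of 50 keeps the differences of such dim genes close to 0, so the median shows little for them.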
